A study of Homo sapiens with 4 samples.

Results

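The cells described here were 985 OVCAR5 cells that carried 1 of 4 pairs of hashtags, out of 5298 cells with a tag pair. OVCAR5 is a human ovarian carcinoma cell line. It had been exposed in culture to medium taken from tumor cells grown together with T cells, or left unstimulated. Per the labels, the pool held 24 conditions, which were 6 levels (no stimulation, undiluted supernatant, and supernatant diluted 5, 25, 125 and 625 times), each at 2, 6, 12 and 24 h. All conditions were measured together by single-cell RNA sequencing of transcript 3′ ends in droplets, and pairs of hashtags (antibody-bound oligonucleotides) marked the condition of origin. The supernatant is a mixture, and the labels do not name the cytokines in it or their amounts.

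Cells were taken from barcodes with at least 1000 genes, at most 20% of their UMIs (unique molecular identifiers, each standing for 1 captured RNA molecule) in mitochondrially encoded genes, and both top hashtags at least 3 times the third. The pairs were HTO2/HTO10 (241 cells), HTO8/HTO10 (263 cells), HTO5/HTO8 (235 cells) and HTO3/HTO9 (246 cells), numbered by the rows of the 10 tags. These 4 pairs and their order had been picked from their measured response genes as a likely series of strong exposures, so the levels below are a description and carry no test. No label ties a tag pair to a level of supernatant or to a time. "First" and "last" therefore mean only the order in which the 4 pairs are listed here, and all sets of 4 values follow that order. Each pair was treated as 1 sample with no replicate, so the intervals given (95%, exact) cover counting error only.

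Tumor cells answer inflammatory cytokines through a fast and a slow arm. NF-κB, a transcription factor released by TNF and IL-1 signalling, switches on its own inhibitors and a wave of chemokines. Interferon gamma acts through JAK kinases and induces IRF1, a transcription factor, and later genes such as the CXCR3 ligands, guanylate-binding proteins and the antigen-presentation machinery. CIITA is the master regulator of MHC class II genes.

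The promoters of the 4 marker genes and of TOP2A, a mitotic gene, are shown because these genes took different courses over the 4 pairs. Each is the 250 bases before the RefSeq start (GRCh38.p14), written 5′ to 3′ on the gene's strand. Capitals mark κB-like words (GGANNTTCC) in NFKBIA and CXCL8, 1 such word and an interferon response core (GAAA, any 2 bases, then GAAA) in CXCL10, the interferon response core in CXCL9, and the cell-cycle homology word TTTGAA or its reverse complement in TOP2A.

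NFKBIA: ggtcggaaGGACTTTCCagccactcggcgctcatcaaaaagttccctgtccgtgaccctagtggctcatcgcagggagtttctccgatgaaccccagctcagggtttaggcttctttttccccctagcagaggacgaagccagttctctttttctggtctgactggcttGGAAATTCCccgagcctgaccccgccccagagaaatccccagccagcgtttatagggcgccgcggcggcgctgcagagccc
CXCL8: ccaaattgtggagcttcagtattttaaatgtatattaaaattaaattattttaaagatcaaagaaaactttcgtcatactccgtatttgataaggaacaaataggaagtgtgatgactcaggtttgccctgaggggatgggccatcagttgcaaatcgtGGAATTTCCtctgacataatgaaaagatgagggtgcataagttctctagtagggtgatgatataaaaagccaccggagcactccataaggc
CXCL10: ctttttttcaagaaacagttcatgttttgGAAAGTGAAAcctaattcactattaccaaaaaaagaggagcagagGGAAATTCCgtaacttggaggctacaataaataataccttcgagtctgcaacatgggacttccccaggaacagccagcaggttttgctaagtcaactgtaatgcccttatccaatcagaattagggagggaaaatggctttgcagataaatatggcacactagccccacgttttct
CXCL9: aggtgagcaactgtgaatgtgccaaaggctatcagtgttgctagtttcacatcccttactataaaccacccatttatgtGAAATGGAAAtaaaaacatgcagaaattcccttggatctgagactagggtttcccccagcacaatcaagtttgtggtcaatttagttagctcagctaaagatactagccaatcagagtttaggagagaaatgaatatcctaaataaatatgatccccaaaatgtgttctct
TOP2A: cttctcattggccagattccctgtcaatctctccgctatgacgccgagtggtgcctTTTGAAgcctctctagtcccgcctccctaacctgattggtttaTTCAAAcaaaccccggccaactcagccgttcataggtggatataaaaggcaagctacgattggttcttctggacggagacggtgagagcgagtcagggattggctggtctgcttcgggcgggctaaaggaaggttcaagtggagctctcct

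These stretches lie at chr14:35404750-35404999 (minus strand, NFKBIA), chr4:73740319-73740568 (plus, CXCL8), chr4:76023498-76023747 (minus, CXCL10), chr4:76007510-76007759 (minus, CXCL9) and chr17:40417897-40418146 (minus, TOP2A). The κB-like words begin 242 and 81 bases before the start in NFKBIA, 91 in CXCL8 and 176 in CXCL10. The interferon response cores begin 221 bases before the start in CXCL10 and 171 in CXCL9.

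The 4 pools held between 2512172 UMIs (HTO3/HTO9) and 3750399 UMIs (HTO8/HTO10), against 1863154 to 3904112 in the other 20 pairs, so that 3 counts stood for 0.800 to 1.19 CPM (UMIs scaled to a total of 1000000 per pair). Depth per cell was lower in the last pairs, with medians of 14471, 13210, 10714 and 9389 UMIs, against 11934 to 14795 in the other 20. The median mitochondrial share was 10.2%, 10.8%, 12.8% and 13.8%, against 8.67% to 12.2%. Epithelial markers were present in all 4, at 3266, 2697, 2162 and 1892 CPM, against 2212 to 3736 CPM. T cell markers summed to 0.272 to 5.6 CPM, nearly all of it TRBC2, with CD2, CD3E, CD3G, CD4 and PTPRC at 0 counts in all 4. Fibroblast markers summed to at most 1.59 CPM, and myeloid markers to between 25.6 and 56.9 CPM, mostly CD68, a lysosomal protein gene. All barcodes came from 1 matrix and none occurred more than once. Cells near the limits were taken from the 4 pairs together. Cells just inside the tag margin (3 to 4 times, 43 cells) had 8088 CPM of interferon gamma response genes, and cells just outside it (2 to 3 times, 44 cells) had 5080 CPM. For the mitochondrial limit, 41 cells between 18% and 20% had 14675 CPM and 16 cells between 20% and 22% had 8962 CPM.

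The 4 marker genes took 2 opposite courses over the pairs. NFKBIA (ENSG00000100906) lies at 35401511 to 35404749 of chromosome 14, minus strand, and makes the protein that keeps NF-κB out of the nucleus. It had 1435 CPM in HTO2/HTO10, 622 in HTO8/HTO10, 675 in HTO5/HTO8 and 679.9 in HTO3/HTO9. The other 20 pairs had 34.7 to 939.7 CPM with a median of 133. All 4 pairs thus lay above the median, and HTO2/HTO10 was the highest of all 24. HTO2/HTO10 was 2.11 times HTO3/HTO9 (2.00 to 2.23). CXCL8 (ENSG00000169429, chromosome 4, 73740506 to 73743716), the neutrophil-attracting chemokine interleukin 8, had 774, 502, 134 and 232 CPM, against 7.14 to 817 CPM and a median of 55.2 in the other 20. HTO2/HTO10 was 3.33 times HTO3/HTO9 (3.04 to 3.64), but under stricter limits on cells (2000 genes or more, mitochondrial share up to 10%, leaving 107, 101, 43 and 30 cells) the log2 difference of HTO3/HTO9 minus HTO2/HTO10 was 0.043.

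CXCL10 (ENSG00000169245, chromosome 4, 76021117 to 76023497) and CXCL9 (ENSG00000138755, chromosome 4, 76001275 to 76007488), ligands of CXCR3, a chemokine receptor on T cells, ran the other way. CXCL10 had 150.1, 1156, 3559.6 and 3896 CPM, against 15.5 to 3186 CPM and a median of 137. CXCL9 had 3.0, 60.0, 525 and 1250.3 CPM, against 2.75 to 458 CPM and a median of 11.4. HTO3/HTO9 was 26.0 times HTO2/HTO10 for CXCL10 (23.8 to 28.3) and 417 times for CXCL9 (233 to 837). Each pair in the order had more of both genes than the one before it. CXCL10 and CXCL9 alone did not mark HTO2/HTO10 as a strong exposure. It ranked 13 of 24 for CXCL10 and 21 of 24 for CXCL9, while it ranked 1 for NFKBIA and 2 for CXCL8. The 24 pairs cover several exposure times, so ranks over all of them do not tell the level of supernatant.

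**Figure D1:**
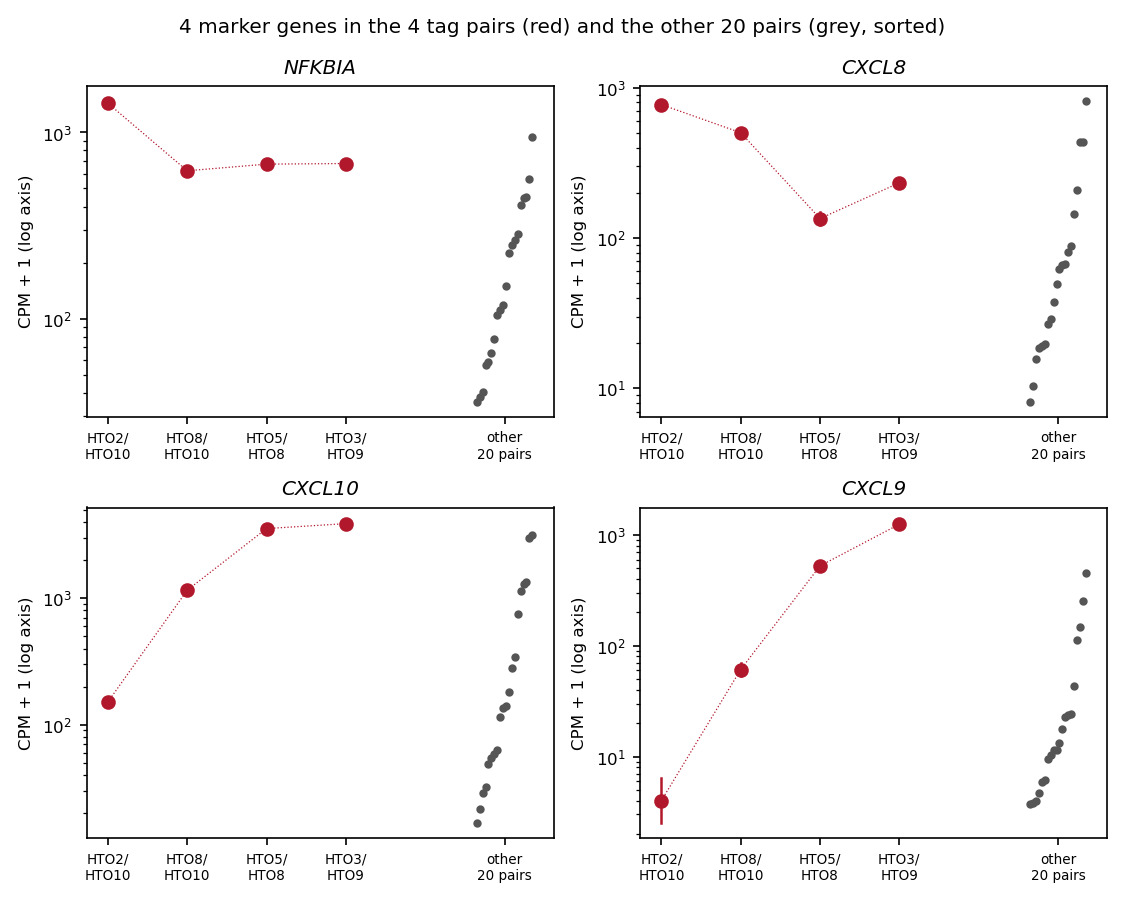
Level of NFKBIA, CXCL8, CXCL10 and CXCL9 as CPM + 1 on a log axis, for the 4 tag pairs (red, with 95% Poisson intervals) and each of the other 20 pairs (grey, sorted). NFKBIA and CXCL8 were higher in HTO2/HTO10 than in HTO3/HTO9, and CXCL10 and CXCL9 stood higher in each pair of the order than in the one before, up to 3896 and 1250.3 CPM in HTO3/HTO9.

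The same courses showed in single cells thinned to 3000 UMIs. NFKBIA was found in 92.9%, 77.8%, 86.3% and 78.9% of cells, against 6.44% to 89.3% in the other 20 pairs. CXCL8 was found in 80.8%, 54.8%, 22.7% and 26.4% of cells, and without thinning in 96.3%, 84.0%, 47.7% and 44.7%. CXCL10 was found in 29.2% (95% binomial interval 23.5 to 35.4), 79.7%, 97.9% and 96.7% of cells (93.7 to 98.6), so the last 2 pairs did not differ beyond counting error. CXCL9 was found in 1.67% (0.456 to 4.21), 11.1%, 53.6% and 73.6% of cells (67.6 to 79.0). The share of 1.67% lay below the median of the other 20 pairs (2.70%) and is read as background.

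Over all genes, 6032 had a mean of at least 20 CPM in the 4 pairs or in the other 20, and 36602 were in the matrix. Differences were taken on log2(CPM + 10), which understates the change of low genes, and counted from 2-fold. HTO3/HTO9 was at least 2-fold above HTO2/HTO10 in 296 genes (4.91%) and at least 2-fold below it in 303 (5.02%), with a median over all genes of -0.14. HTO2/HTO10 was 2-fold or more above the median of the other 20 pairs in 51 genes (0.845%) and 2-fold or more below it in 31 (0.514%). HTO3/HTO9 was above it in 285 genes (4.72%) and below it in 262 (4.34%). Between neighbours, HTO8/HTO10 was above HTO2/HTO10 in 76 genes (1.26%) and below it in 39 (0.647%). HTO5/HTO8 was above HTO8/HTO10 in 78 genes (1.29%) and below it in 56 (0.928%). HTO3/HTO9 was above HTO5/HTO8 in 42 genes (0.696%) and below it in 10 (0.166%).

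Genes were sorted into courses by the same 2-fold size. An early gene was 2-fold or more above the median of the other 20 in the first pair and 2-fold or more lower in the last than in the first. A late gene was 2-fold or more higher in the last pair than in both the first pair and that median, and a reduced late gene was 2-fold or more lower than both. A sustained gene stood 2-fold above the median in all 4 with a spread under 2-fold. There were 12 early genes (0.199% of those tested), 6 sustained (0.0995%), 210 late (3.48%) and 223 reduced late (3.70%), and 1 gene that peaked in the middle (0.0166%). With HTO5/HTO8 taken as the last pair, an alternative chosen after seeing the data, late genes numbered 137 and reduced late genes 106. The counts also moved with the pseudocount, from 98 late and 54 reduced late genes at 50 CPM to 288 and 413 at 1 CPM. The filter on low values was passed only through the 4 pairs by 6 of the 12 early genes, 64 of the late and 1 of the sustained, and only through the other 20 by 9 of the reduced late, so these counts are in part set by the filter. The same held for 4 of 19 tested NF-κB feedback genes, 3 of 18 interferon gamma effectors, 1 of 14 MHC class I genes, 3 of 29 antiviral genes and 1 of 16 cell-death genes, whose courses are given with each list.

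**Figure D2:**
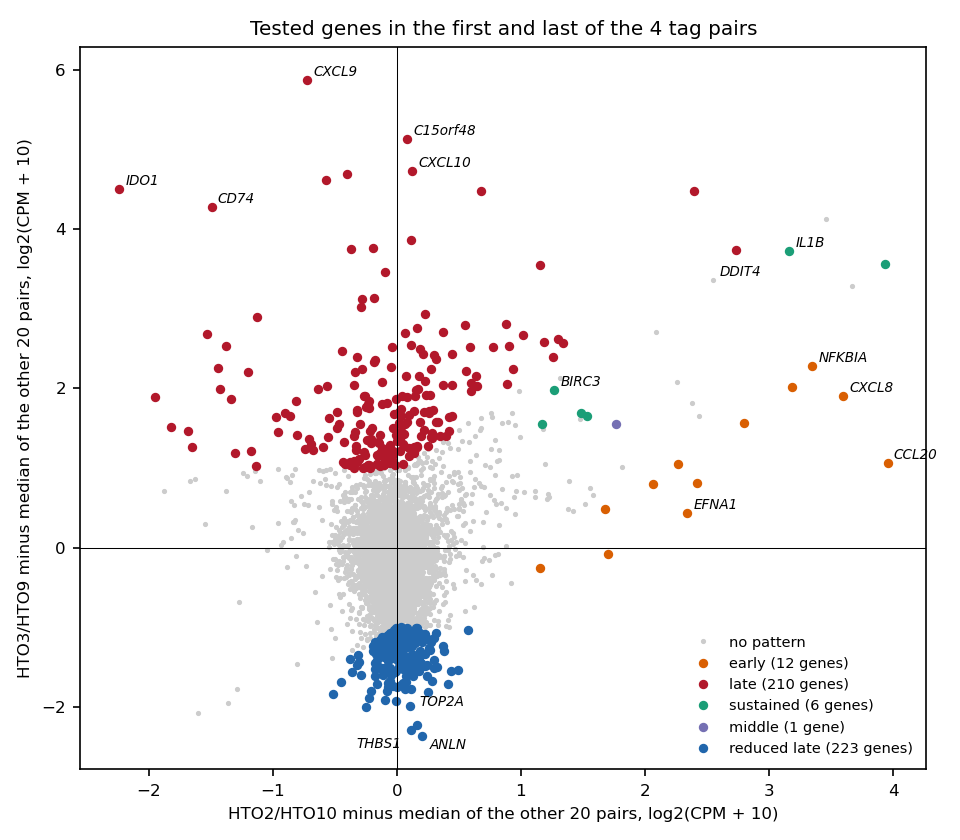
Each point is 1 of 6032 genes. The x axis is HTO2/HTO10 and the y axis HTO3/HTO9, each minus the median of the other 20 pairs on log2(CPM + 10), coloured by course. Late genes (210) lie high, early genes (12) lie far right, and reduced late genes (223) lie low.

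The regulators that limit NF-κB were high in the first pair and in the last. The 21 listed inhibitors and subunits summed to 3090.0, 2412, 2565 and 2851 CPM, against 367 to 2411 CPM and a median of 936 in the other 20, so the 4 pairs ranked 1 to 4, HTO8/HTO10 by a margin of about 1 CPM. HTO3/HTO9 was 0.923 times HTO2/HTO10 (0.896 to 0.95). Of 19 tested members, 2 were early, 3 late and 1 sustained. TNFAIP3, the ubiquitin-editing enzyme A20, was early, with 233, 79.2, 85.9 and 93.5 CPM. BIRC3, an inhibitor of apoptosis and ubiquitin ligase, was sustained, with 377, 436, 471 and 625 CPM, against 16 to 427 CPM. TNIP1, which binds A20, was late, with 204, 517, 606 and 565 CPM, and so was the subunit gene NFKB2, with 19.1, 52.5, 65.0 and 83.6 CPM. NFKBIZ, a nuclear cofactor of NF-κB, had 139, 35.7, 65.0 and 76.0 CPM and met no course.

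The summed effectors of NF-κB were higher in each pair of the order than in the one before. Their 17 genes summed to 3202, 4307, 5147 and 5756 CPM, against 1030.2 to 3318 CPM, and 6 of 15 tested members were late and none early, with 4 of the 15 having passed the filter only through the 4 pairs. SOD2, a mitochondrial superoxide dismutase, had 339, 792, 1445 and 1835 CPM, against a median of 147. The adhesion molecule gene VCAM1 had 23.7, 68.8, 113 and 118 CPM, against 0.695 to 47.7 CPM. ICAM1, the other adhesion molecule, had 598, 1088, 1251 and 1065 CPM, and its 1.78-fold difference between HTO3/HTO9 and HTO2/HTO10 (1.68 to 1.88) did not reach 2-fold.

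Inflammatory cytokine and chemokine genes were spread over several courses. The 21 genes summed to 2754, 1942, 2729.8 and 4046 CPM, against 65.9 to 2493 CPM and a median of 402. HTO3/HTO9 was 1.47 times HTO2/HTO10 (1.43 to 1.51), but HTO5/HTO8 was 0.991 times HTO2/HTO10. Of 15 tested, 3 were early, 5 late, 2 sustained and 1 peaked in the middle, and 6 of the 15 passed the filter only through the 4 pairs. CCL20, which attracts CCR6-bearing lymphocytes and dendritic cells, had 185, 73.9, 32.5 and 16.3 CPM, lower in each pair of the order than in the one before, against a median of 2.57. HTO2/HTO10 was 11.3 times HTO3/HTO9 (8.26 to 15.9). CSF2, the growth factor GM-CSF, was early too, with 119, 31.2, 59.7 and 47.4 CPM. IL1B, the cytokine interleukin 1 beta, was sustained, with 183, 167, 136 and 275 CPM, against a median of 11.7, and so was CXCL1, with 401, 219, 223 and 308 CPM. CCL2, which attracts monocytes, peaked in the middle, with 42.8, 103, 145 and 35.4 CPM. CCL5, IL32 and LTB were late. CCL5 had 13.1, 20.3, 178 and 312 CPM, IL32 had 111, 312, 1105 and 1412 CPM, and LTB had 8.44, 50.4, 128 and 77.6 CPM.

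More members of the cytokine list are given here, chosen after their values were seen. The neutrophil-attracting chemokine genes CXCL3 and CXCL2 were lower in the 2 middle pairs than at either end. CXCL3 had 311, 144, 146 and 503 CPM, and CXCL2 had 382, 124, 161 and 292 CPM. CSF3, which encodes G-CSF, was late, with 49.3, 40.8, 94.1 and 242 CPM, against 0 to 53.0 CPM. IL1A, the cytokine interleukin 1 alpha, was late too, with 83.3, 62.9, 65.0 and 177 CPM. The 4 IL1A values lay above the highest of the other 20 pairs (61.8 CPM).

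Regulators in the interferon gamma pathway were split. IRF1 (ENSG00000125347), an early transcription factor of the pathway, was level, with 1715, 1331, 1480.3 and 1682 CPM, against 60.1 to 1658 CPM and a median of 895. HTO3/HTO9 was 0.981 times HTO2/HTO10 (0.943 to 1.02), an interval that includes 1. IRF1 in HTO2/HTO10 ranked 1 of 24. CIITA had 3.54, 26.9, 41.8 and 35.8 CPM and ETV7, a transcriptional repressor, had 5.45, 23.7, 44.8 and 56.5 CPM, against a median of 25.7. SOCS1, the feedback inhibitor of JAK kinases, was late, with 22.1, 52.8, 80.7 and 73.2 CPM. In all, 4 of 14 tested regulators were late and none early, and 4 of the 14 had passed the filter only through the 4 pairs.

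Most genes downstream of these regulators were late. The 3 CXCR3 ligands summed to 178, 1402, 5179.9 and 6324 CPM, against 25.6 to 5006 CPM and a median of 175, and HTO3/HTO9 was 35.6 times HTO2/HTO10 (32.9 to 38.6). Of 18 tested effector genes, 13 were late. Their list summed to 792, 2838, 7814 and 9590.1 CPM, against 350 to 7108 CPM and a median of 2265 in the other 20. HTO2/HTO10 thus lay below that median, ranking 18 of 24. The ratio between HTO3/HTO9 and HTO2/HTO10 was 12.1 (11.7 to 12.6). IDO1 (chromosome 8, 39902275 to 39928444), which degrades tryptophan, had 16.3, 205, 2244 and 2818 CPM, against 10.1 to 1936 CPM. Its share of thinned cells was 2.92%, 35.6%, 94.0% and 99.2%, so that in the last 2 pairs nearly every cell carried it. WARS, the tryptophanyl-tRNA synthetase, had 126, 604, 1951 and 2514 CPM. GBP1, a guanylate-binding protein that attacks intracellular pathogens, had 62.4, 352, 790.2 and 935 CPM, and GBP5 of the same family had 4.09, 21.3, 126 and 508 CPM. On log2(CPM + 10), GBP5 was 1.93 higher in HTO3/HTO9 (508 CPM) than in HTO5/HTO8 (126 CPM). The summed CXCR3 ligands of HTO3/HTO9 were 1.22 times those of HTO5/HTO8 as a plain ratio (1.19 to 1.25). Of the 3 ligands, 1 (CXCL9) was 2-fold or more higher in this step, so the sum does not speak for each ligand.

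Antigen presentation continued to differ up to the last pair. The MHC class I list summed to 4676, 6483, 10304 and 16175 CPM, against 3064 to 13542 CPM and a median of 6463, and 11 of 14 tested members were late. HTO3/HTO9 was 3.46 times HTO2/HTO10 (3.40 to 3.52) and HTO5/HTO8 was 2.20 times. B2M, the class I light chain, had 2402, 2883, 4278 and 6730.4 CPM. PSMB9, an immunoproteasome subunit, had 90.2, 217, 559.8 and 912 CPM, and the peptide transporter gene TAP1 had 55.0, 177, 409 and 482 CPM. Reads of the classical class I heavy chain genes may be split among near-identical copies, so their share of the sum is uncertain.

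MHC class II genes had the largest last step among the list sums, HTO3/HTO9 being 2.37 times HTO5/HTO8 (2.26 to 2.48). Single genes outside this list, such as GBP5, differed more. Their list summed to 36.0, 178, 997 and 2363 CPM, against 17.2 to 2018 CPM and a median of 124. HTO3/HTO9 was 65.7 times HTO2/HTO10 (55.3 to 78.7), and HTO5/HTO8 was 27.7 times. The 6 tested members, of 12 listed, were late, 2 of them having passed the filter only through the 4 pairs, and 4 were still 2-fold or more higher in HTO3/HTO9 than in HTO5/HTO8. CD74 (ENSG00000019582, chromosome 5, 150401637 to 150412929), the invariant chain, had 19.3, 124, 684 and 1593 CPM and was found in 4.58%, 28.0%, 82.0% and 97.2% of thinned cells. HLA-DRA, the class II alpha chain, had 2.45, 4.53, 74.7 and 208 CPM, so its HTO8/HTO10 value was below the median of the other 20 (6.11 CPM) while CIITA there was above its own (15 CPM). CTSS, a protease that processes the invariant chain, had 3.54, 35.5, 109.8 and 210.2 CPM. Myeloid cells also express class II genes. The 8 myeloid markers summed to 25.6, 30.1, 48.2 and 56.9 CPM, against 21.5 to 38.3 CPM, so the last 2 sums lay above the other 20. CD68 gave 22.9, 26.1, 42.9 and 53.7 CPM of this. TYROBP, AIF1 and FCGR3A were at 0 counts, and the remaining markers of the list gave the rest. Whether myeloid cells were present was not tested.

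**Figure D3:**
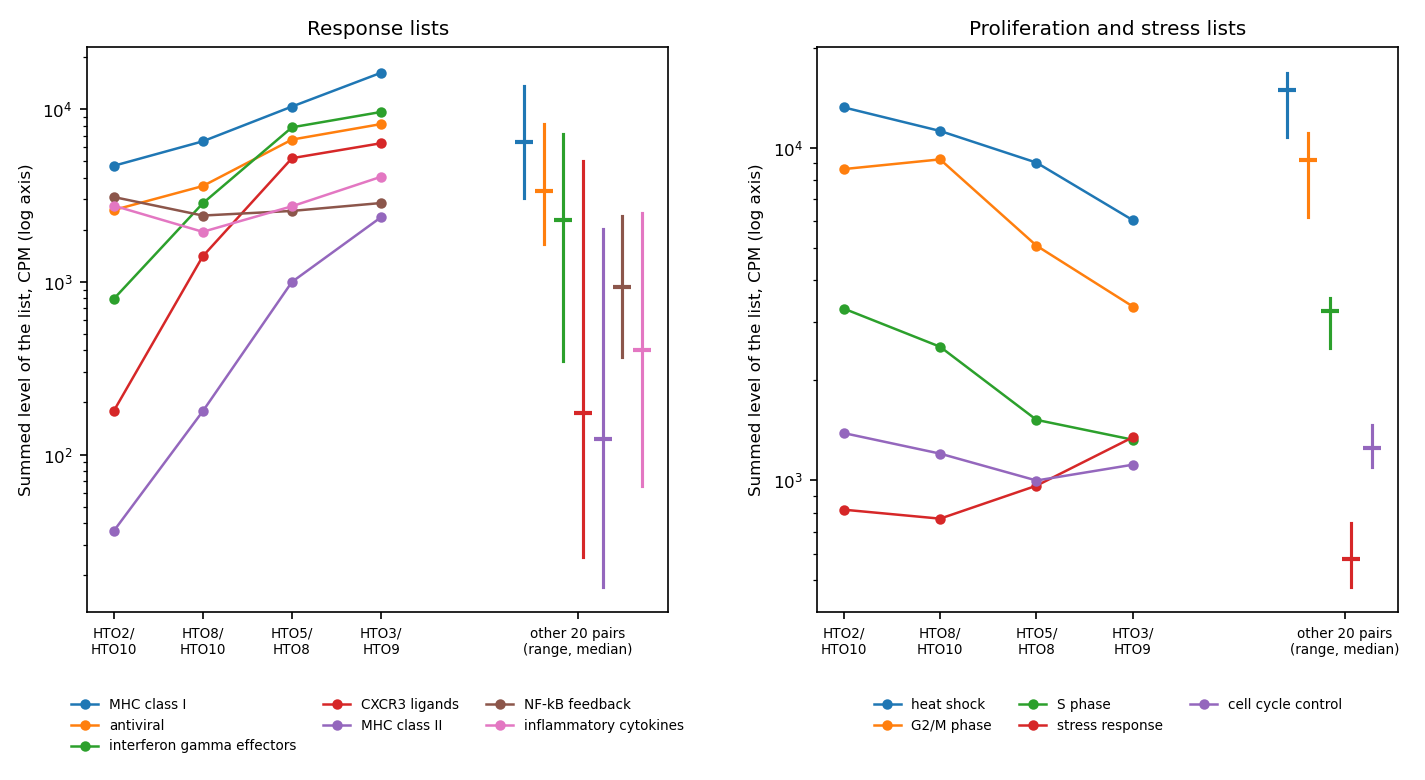
Summed CPM of gene lists on a log axis over the 4 tag pairs (points and lines), with the range (bar) and median (tick) of the other 20 pairs beside them. NF-κB feedback genes stayed between 2412 and 3090.0 CPM, interferon gamma lists were higher in each pair of the order, and S phase, G2/M and heat shock lists were lower in the last pairs, while the stress list was highest in HTO3/HTO9 (1347 CPM).

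Antiviral genes, which interferons of all types induce, followed with smaller differences, 15 of 29 tested being late. They summed to 2594, 3573, 6636 and 8161 CPM, against 1641 to 8154 CPM, so HTO3/HTO9 was hardly above the highest other pair. XAF1, a pro-apoptotic interferon target, had 5.72, 43.2, 94.5 and 156 CPM. IFI27, another interferon target, had 991, 913, 935 and 1224 CPM and met no course. Acute-phase and complement genes were late in 6 of 10 tested, 5 of the 10 having passed the filter only through the 4 pairs. SAA1, a serum amyloid gene, had 235, 446, 1442 and 1481 CPM, and the complement protease gene C1S had 3.0, 5.6, 26.5 and 66.9 CPM. PTX3, a pattern-recognition protein of the same list, was early, with 457, 478, 185 and 125 CPM.

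Of 16 tested cell-death genes, 2 were late and 1 sustained. TNFSF10, the death ligand TRAIL, had 7.90, 60.3, 226 and 266 CPM, against a median of 10.4, and GSDMD, a pore-forming effector of pyroptosis, had 25.9, 60.0, 137 and 132 CPM. BBC3, the BH3-only protein PUMA, was sustained, with 26.7, 48.3, 30.6 and 29.9 CPM, all above the highest of the other 20 pairs (19.4 CPM).

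Late genes did not all change at the same point in the order. The largest difference between neighbours lay between HTO2/HTO10 and HTO8/HTO10 for 75 late genes, between HTO8/HTO10 and HTO5/HTO8 for 93 and between HTO5/HTO8 and HTO3/HTO9 for 42. Each pair exceeded the one before it in 163 of the 210. HTO3/HTO9 had the highest level of all 24 pairs for 176, and HTO5/HTO8 for 20. C15orf48, a mitochondrial protein gene in none of the lists, had 6.81, 32.8, 170.3 and 547 CPM, against 1.64 to 74.0 CPM. Of the 12 early genes, 9 had their largest difference between HTO2/HTO10 and HTO8/HTO10, and 9 had their highest level of all 24 pairs in HTO2/HTO10. Early genes outside the lists included EFNA1, a membrane-bound ephrin ligand, with 57.5, 7.73, 7.47 and 7.96 CPM, the epithelial transcription factor gene ELF3, with 78.7, 25.6, 23.9 and 19.1 CPM, and the small GTPase gene RHOB, with 97.5, 24.5, 33.2 and 34.6 CPM.

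The summed stress list was higher in each of the 4 pairs than in any other pair. In 46 genes (0.763% of those tested) all 4 pairs lay above every other pair, and in 41 (0.680%) all 4 lay below. Many of these gaps were small, down to 7.9e-06 on log2(CPM + 10) for TBC1D10A, and counting error was not set against them. Of 11 tested genes of the stress list (integrated stress, unfolded protein and hypoxia responses), 5 were among the 46, and none of the interferon gamma, MHC or CXCR3 ligand lists was. The filter admitted 6 of those 11 only through the 4 pairs, among them all of the 5 but ATF4, so the count of 5 supports nothing by itself. DDIT4 (ENSG00000168209, chromosome 10, 72273920 to 72276036), an inhibitor of the growth kinase mTORC1, had 134, 72.5, 74.7 and 244 CPM, against 4.10 to 30.9 CPM and a median of 14.8. CHAC1, which degrades glutathione and is an ATF4 target, had 15.5, 11.7, 15.7 and 46.2 CPM, against 0 to 2.1 CPM. ATF4, the transcription factor of the integrated stress response, had 113, 140.3, 127 and 199.8 CPM, against 47.6 to 82.8 CPM. SESN2, another mTORC1 inhibitor, had 20.7, 22.4, 8.22 and 51.0 CPM, the third value being close to the highest other pair (7.99 CPM). VEGFA, an angiogenic factor, had 19.1, 42.1, 26.5 and 41.0 CPM, against 3.05 to 16.4 CPM. The list summed to 816, 767, 963 and 1347 CPM, against 479 to 743 CPM, and HTO3/HTO9 was 1.65 times HTO2/HTO10 (1.57 to 1.74). Other genes above every other pair were named after their values were seen. GDF15, a stress-induced cytokine, had 16.3, 22.1, 25.0 and 71.7 CPM, against at most 10.4 CPM. CEBPB, an inflammatory transcription factor gene, had 155, 162, 156 and 262 CPM, against at most 129 CPM. The noncoding RNA NEAT1 had 1645, 2346, 2797 and 1540.5 CPM, against at most 1195 CPM. The amino acid transporter gene SLC38A2 was among the 46 too, with 43.3, 53.6, 58.6 and 116 CPM, against at most 40.7 CPM. So was SARS, the seryl-tRNA synthetase gene, with 74.4, 108.5, 129.6 and 136 CPM, against at most 71.3 CPM. Their gaps were small, at 0.074 for SLC38A2 and 0.053 for SARS on log2(CPM + 10).

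**Figure D4:**
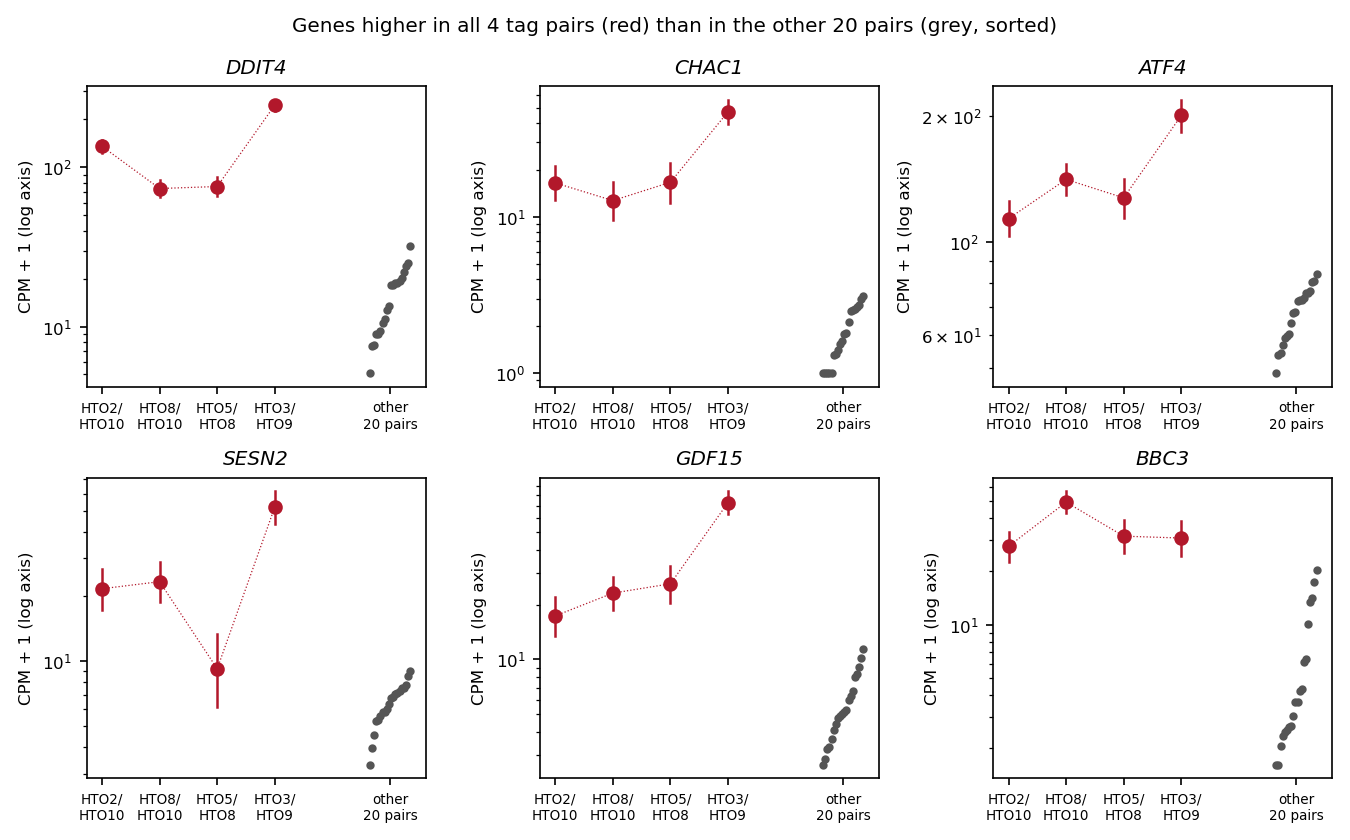
Level of DDIT4, CHAC1, ATF4 and SESN2 (stress list), GDF15 and BBC3 as CPM + 1 on a log axis, for the 4 tag pairs (red, with 95% Poisson intervals) and the other 20 pairs (grey, sorted). For all 6 genes the 4 pairs lie above the highest other pair, with SESN2 in HTO5/HTO8 (8.22 CPM) the closest to it (7.99 CPM).

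Chaperone genes were lower. The heat shock list summed to 13220.1, 11227, 9017 and 6053 CPM, against 10778 to 16805 CPM, and 5 of 11 tested members were reduced late. HSP90AA1, the inducible HSP90, had 5737, 4782, 3156 and 2311 CPM, and HSPD1, the mitochondrial chaperonin, had 1756, 1492, 1030.3 and 773 CPM. The inducible HSPA1A ran differently, with 18.5, 39.2, 119.9 and 10.3 CPM, and HSPA8, the constitutive HSP70, had 561, 505, 1175 and 369 CPM, against 1097 to 1958 CPM. HSPA1A and HSPA1B are near-identical copies, so the division of reads between them is uncertain.

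Immediate-early genes showed little common course. Of 9 tested, only JUNB met one (sustained), with 71.9, 48.8, 58.3 and 84.4 CPM. MYC, the growth regulator, had 34.6, 30.7, 39.6 and 89.6 CPM, against 56.7 to 90.6 CPM. The first 3 pairs were thus the lowest 3 of all 24 for MYC, and HTO3/HTO9 ranked 2.

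Expression of cell-cycle genes was lower in the last pairs. The 55 genes of the G2/M list summed to 8623, 9222, 5074 and 3329 CPM, against 6193 to 11039 CPM and a median of 9185. The first 2 pairs thus lay inside the range of the other 20, and the last 2 below it. HTO3/HTO9 was 0.386 times HTO2/HTO10 (0.377 to 0.396), and HTO5/HTO8 was 0.588 times. Of 55 tested, 36 were reduced late. The 44 S phase genes summed to 3283, 2520.3, 1519 and 1324 CPM, against 2495 to 3524 CPM, with 17 of 37 tested reduced late, so here the second pair was already near the low end of the other 20. HTO8/HTO10 was 2-fold or more below HTO2/HTO10 in none of these 37 genes, nor in any of the 55 G2/M genes.

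Single genes followed the lists. ANLN (chromosome 7, 36389806 to 36453791), which organises the contractile ring, had 248, 168, 78.0 and 33.4 CPM, against 118 to 278 CPM, and HTO2/HTO10 was 7.42 times HTO3/HTO9 (5.93 to 9.39). TOP2A (ENSG00000131747, chromosome 17, 40388516 to 40417950), the topoisomerase of mitotic chromosomes, had 482, 511, 240.1 and 122 CPM, against 284 to 540.1 CPM. RRM2, which makes deoxynucleotides, had 215, 153, 72.1 and 42.6 CPM, and the histone gene HIST1H4C had 820.1, 523, 281 and 193 CPM. The mitotic regulators FOXM1 and MYBL2 were reduced late, with 78.4, 69.6, 35.1 and 27.1 CPM for FOXM1 and 128, 105, 39.96 and 28.3 CPM for MYBL2. CDKN1A, the cyclin-dependent kinase inhibitor p21, was sustained, with 50.1, 69.3, 67.2 and 68.1 CPM, against 5.21 to 56.9 CPM, so it was above the median of the other 20 (16.7 CPM) also where G2/M genes were not low. Cyclin D1 (CCND1) had 569, 455, 484 and 551 CPM, inside the 415 to 698 CPM of the other 20.

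Across the 223 reduced late genes, the largest difference between neighbours lay between HTO8/HTO10 and HTO5/HTO8 for 157, between HTO5/HTO8 and HTO3/HTO9 for 42 and between HTO2/HTO10 and HTO8/HTO10 for 24. HTO3/HTO9 was the lowest of all 24 pairs for 202. Beyond the cell-cycle lists they included THBS1, a matrix glycoprotein gene, with 93.1, 52.8, 10.5 and 9.55 CPM, against 13.3 to 168 CPM, PEG10, an imprinted gene, with 152, 129, 68.3 and 20.7 CPM, and ODC1, the rate-limiting enzyme of polyamine synthesis, with 438, 292, 76.9 and 103 CPM.

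Fewer single cells had many G2/M UMIs in the last pairs. After thinning to 3000 UMIs, the median cell had 23, 24, 8 and 5 G2/M UMIs, against medians of 15 to 31 in the other 20 pairs. Cells with 20 or more G2/M UMIs made up 70.0% (63.8 to 75.7), 67.4%, 27.5% and 10.98% (7.36 to 15.6) of cells, against 36.1% to 80.0% and a median of 68.0%. In HTO5/HTO8 the upper quartile of cells was 22 G2/M UMIs, and in HTO3/HTO9 it was 10. TOP2A was found in 64.2%, 64.8%, 30.0% and 18.7% of thinned cells and in 92.1%, 92.4%, 48.9% and 33.7% of unthinned ones. S phase UMIs had medians of 9, 7, 3 and 3. Lower depth and higher mitochondrial share moved with these values in HTO5/HTO8 and HTO3/HTO9. The ratio of G2/M genes between HTO3/HTO9 and HTO2/HTO10 was 0.373 in thinned cells and 0.362 under the stricter limits on cells.

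**Figure D5:**
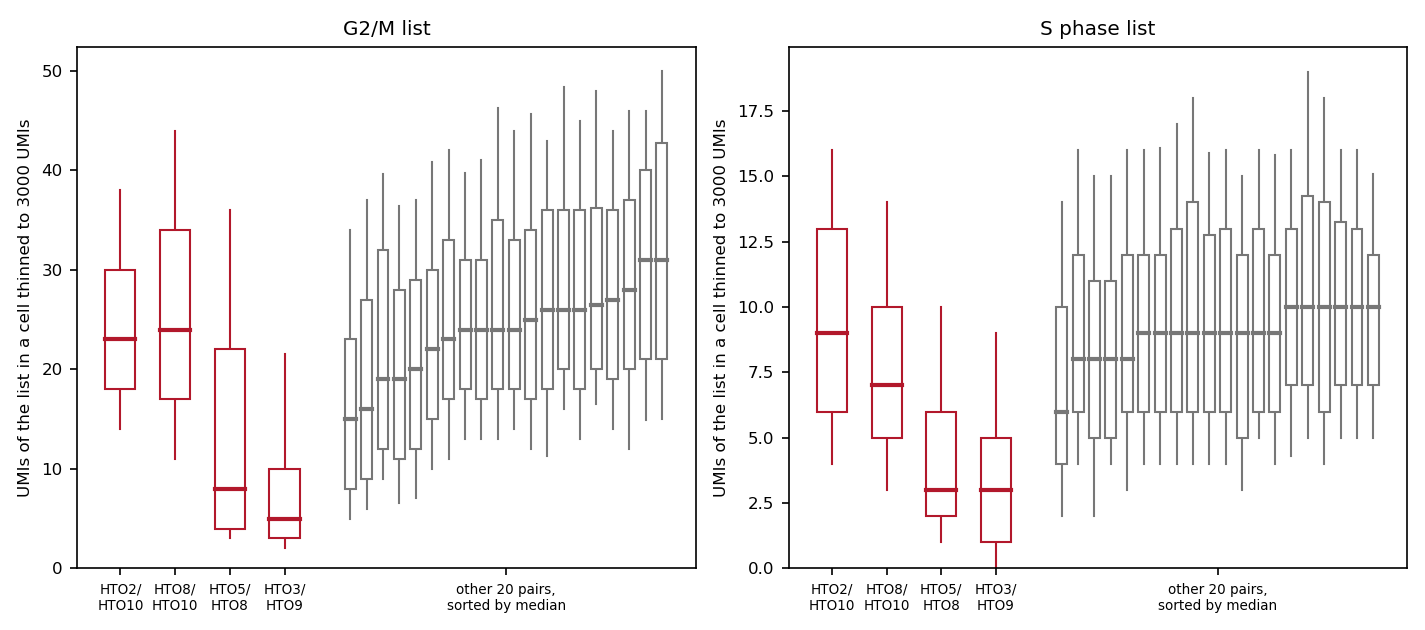
UMIs of the G2/M and S phase lists in each cell thinned to 3000 UMIs, for the 4 tag pairs (red) and the other 20 pairs (grey, sorted by median). Boxes span the quartiles with the median as a line, and whiskers reach the 10th and 90th percentiles. The G2/M medians of 8 and 5 in HTO5/HTO8 and HTO3/HTO9 lie below all others.

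Within HTO3/HTO9, the 27 cells with 20 or more G2/M UMIs had 4629.6 CPM of CXCR3 ligands (Poisson interval 4173 to 5123), and the 219 cells with fewer had 6930.0 CPM (6730 to 7134). MHC class II genes were at 2136 CPM (1829 to 2479) and 2400.3 CPM (2283 to 2522) in the same cells. In HTO5/HTO8 the 64 cells with 20 or more G2/M UMIs had 5271 CPM of CXCR3 ligands (4951 to 5606) and the other 169 had 5418 (5217 to 5625), so the intervals of the CXCR3 ligands overlapped there. Those of the inflammatory cytokines did not, with 2229 CPM (2023 to 2451) in the cells with 20 or more G2/M UMIs and 2911 CPM (2765 to 3064) in the others. In HTO3/HTO9, interferon gamma effectors were at 7877 CPM in the cells with 20 or more G2/M UMIs and 10052 CPM in the others. MHC class I genes there were at 14531 and 17029 CPM. NF-κB feedback genes ran the other way in HTO2/HTO10 (3177 and 2671 CPM) and in HTO8/HTO10 (2473 and 2106 CPM). The intervals leave out the spread between cells, so their overlap or lack of it decides nothing. Cells of 1 pair share their sample and are not replicates.

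Promoter words were counted on both strands in the 250 bases before the start for genes that matched RefSeq by symbol. The κB-like word GGANNTTCC stood in 4 of 11 matched early promoters (36.4%) and 20 of 159 late ones (12.6%), with 6 of the 12 early genes having passed the filter only through the 4 pairs, against 4.13% of 4914 tested genes and 3.88% of all 27305 promoters. The interferon response core stood in 26 late promoters (16.4%) and 2 of 180 reduced late ones (1.11%), against 2.79% of tested genes and 3.07% of all. The interferon gamma-activated site word TTCNNNGAA, which can overlap the other 2, stood in 15 late promoters (9.43%), against 6.04% and 6.78%. The cell-cycle homology word TTTGAA stood in 43 reduced late promoters (23.9%), against 8.4% and 13.6%, and an E2F word (TTTCCCGC or TTTGGCGC) in 11 (6.11%), against 3.68% and 1.96%. The marker genes are part of these counts. NFKBIA and CXCL8 are among the early κB-like promoters and CXCL10 among the late ones, and CXCL10 and CXCL9 are among the late promoters with the interferon response core. The pairs had been picked from response genes, so these shares are not independent support. A match describes letters in this window, and the shares carry no test.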

How the data were processed

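Gene expression and hashtag libraries of 1 pool, 2 of each kind, were deposited with 1 matrix of UMI counts for 36602 genes, 10 tags and 10660 barcodes. Per the file headers, the authors' counts came from Cell Ranger 5.0.1. The version in the submitters' processing notes is 2.1.1, and the build GRCh38.

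Of the barcodes, 6408 passed the quality filter and 5298 had 1 of 24 tag pairs. Tag pairs mark conditions, and no source used here maps pairs to conditions. No test was therefore run. Some genes are not reported here. Counts were summed per pair, divided by the total and multiplied to CPM. Intervals were exact Poisson, binomial and conditional binomial. No doublet caller was run, and barcodes with a further strong tag were left out. Thinned cells had 3000 UMIs, with shallower ones left out. Coordinates came from GENCODE 29, matched for 34616 genes, and promoters from RefSeq GRCh38.p14. Python 3.11.15, numpy 2.4.6, pandas 2.3.3, scipy 1.17.1 and matplotlib 3.10.9 were used. The sorting of genes into courses was checked on simulated counts with counting noise only. That check held no variation between cultures or cells, so it cannot speak to the missing replicates.

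Tag pairs, gene lists and courses were chosen with earlier results of these data known. Named genes are the markers, the 8 with the largest difference in each course, and 3 per list by mean level and 3 per list by range over the pairs. Other genes were named after their values were seen. The 13 alternatives changed the pseudocount, the filter on genes, the scaling, the filters on cells, the tag margin, cells with 3 or more KRT81 UMIs, the depth, the level set against and the last pair.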

Additional observations from a re-analysis of the deposited data

How the results depend on the processing

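No paired analysis was possible because each tag pair was 1 sample with no replicate number. Of 115 named genes, 70 differed by 2-fold or more between HTO3/HTO9 and HTO2/HTO10, and 69 of them kept their direction under all 13 alternatives. CXCL8 did not, with a log2 difference of 0.043 under stricter limits on cells (2000 genes or more, mitochondrial share up to 10%), against -1.69 in all cells and -2.28 without cells holding 3 or more KRT81 UMIs. Changing the pseudocount, the filter on genes or the level set against cannot turn a gene round. Many named genes were also picked for a large difference, so the count of 69 was in part fixed in advance. Those settings do not enter the list ratios. Of 17 list ratios, 15 kept their side of 1 under the other alternatives. The cause of the moves below was not tested, except that fewer genes enter with a minimum of 100 CPM and a pseudocount of 50 CPM shrinks all differences.

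With HTO5/HTO8 as the last pair, an alternative chosen after seeing the data, inflammatory cytokines (0.991) and immediate-early genes (0.807) turned round. Late, middle and reduced late genes numbered 137, 0 and 106. The list ratios to HTO2/HTO10 were 29.2 for CXCR3 ligands, 9.87 for interferon gamma effectors, 2.20 for MHC class I, 27.7 for MHC class II, 0.830 for NF-κB feedback, 0.463 for S phase and 0.588 for G2/M.

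In the stricter cells, HTO3/HTO9 was 2-fold or more above HTO5/HTO8 in 171 genes and below it in 178, there were 5 middle and 3 sustained genes, and the ratios of HTO3/HTO9 to HTO2/HTO10 were 42.6 for CXCR3 ligands, 13 for interferon gamma effectors, 2.35 for cytokines, 3.60 and 94.2 for MHC class I and II, 0.494 for S phase and 0.362 for G2/M. Thinning gave 73 genes higher and 36 lower in HTO3/HTO9 than in HTO5/HTO8, 167 lower in HTO5/HTO8 than in HTO8/HTO10, 60 lower in HTO8/HTO10 than in HTO2/HTO10, 3 middle genes, and ratios of 0.373 for G2/M, 12.6 for effectors and 0.965 for feedback.

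A minimum of 100 CPM left 121 genes higher and 121 lower in HTO3/HTO9 than in HTO2/HTO10, with 42 and 14 for the first step, 40 and 26 for the second and 18 and 5 for the last, and 5 early, 94 late, 3 sustained, 0 middle and 98 reduced late genes. A pseudocount of 50 CPM gave 131 higher and 73 lower, 24 and 9, 34 and 8, and 16 and 3 for the steps, and 5 early, 98 late, 3 sustained and 54 reduced late genes. A pseudocount of 1 CPM gave 528 lower genes, 135 and 71 for the first step, 164 lower for the second, 69 and 38 for the last, 2 middle and 413 reduced late genes.

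Median-of-ratios scaling gave 37 lower genes for the second step and 2 middle genes. That scaling and a total without mitochondrial genes both gave 0.400 for G2/M, 1.52 for cytokines, 3.58 for MHC class I and 0.955 for feedback. The mean of per-cell CPM gave 95 lower genes for the second step and 0.369 for G2/M and S phase and 12.7 for effectors. The lower quartile of the other 20 pairs gave 2 middle and 13 sustained genes. A tag margin of 5 gave 1.41 for cytokines. The median over all genes of HTO3/HTO9 minus HTO2/HTO10 was -0.14 on log2, and between -0.25 and 0.00 under the alternatives.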

Other observations

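Of the 41 genes in which all 4 pairs lay below every other pair, 3 are given here, named after their values were seen. The gaps to the nearest other pair were small. On log2(CPM + 10) they were 0.114 for NOP2, 0.044 for MAT2A and 0.050 for PSMB5, and at most 0.168 in the 41. Counting error was not set against them. NOP2, an rRNA methyltransferase gene, had 22.1, 17.9, 19.8 and 24.7 CPM, against 27.5 to 53.3 CPM in the other 20 pairs. MAT2A, which makes S-adenosylmethionine, had 122, 101, 126 and 146 CPM, against 151 to 269 CPM, and PSMB5, the proteasome subunit that the immunoproteasome replaces, had 386, 381, 331 and 349 CPM, against 400.5 to 454 CPM. Further polyamine genes lay with ODC1 among the reduced late genes. SRM, spermidine synthase, had 403, 325, 128 and 112 CPM, and SMS, spermine synthase, had 356, 334, 149 and 112 CPM.

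Late genes outside the lists included CD47, the signal that restrains phagocytosis, with 66.5, 141, 261 and 339 CPM, and TNFSF13B, the B cell factor BAFF, with 1.91, 8.0, 57.1 and 80.0 CPM. The feature table also lists Katushka, the name of a red fluorescent protein, which had 1.36, 3.73, 7.47 and 7.17 CPM, against 0 to 11.3 CPM and a median of 3.75.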
